A study of Mus musculus with 4 samples.

Results

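The genes *Tnf*, *Tnfsf11* and *Tnfrsf26* belong to the tumor necrosis factor (TNF) superfamily and are 3 of the 515 genes in a table that compares gene expression between WT and Areg-/- Th9 cells. *Tnf* and *Tnfsf11* encode ligands and *Tnfrsf26* encodes a receptor. All 3 gene identifiers belong to genes of these names in the annotation. The members were chosen by name from a table that holds only genes the authors called different between the same genotypes. Their differences are therefore what put them there, and they are given as a description with no test. Genes without a call are not analysed here, and so none from just outside that limit is shown.

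Th9 cells are CD4+ T helper cells that produce IL-9. Naïve CD4+CD62L+ T cells were sorted from the spleen and lymph nodes of mice on the C57BL/6 strain, 6 to 12 weeks old per the methods of the study, with the age and sex of the mice matched. They were activated with plate-bound anti-CD3 and anti-CD28 (2 μg/ml each) and cultured for 3 days, with 2 ng/ml of TGF-β1 and 20 ng/ml of IL-4. The WT group had 2 samples and the Areg-/- group 2 samples. Areg-/- mice lack amphiregulin, which binds the epidermal growth factor receptor (EGFR), in the whole animal and not only in T cells. No other allele or agent is named in the labels. The table calls the WT group a condition without doxycycline and says nothing of it for the Areg-/- group, and every difference below takes that group to be the WT samples of the series. The table holds 1 FPKM value per gene and genotype (fragments mapped to a gene, relative to its transcript length and to the library), in which both samples of a genotype are combined. A spread between samples, an n for a value and the depth of each sample are thus unknown, and no difference below could be set against replicate error. *Areg* and *Egfr* were not listed, so their levels are unknown and the genotype could not be checked by *Areg*. Of 5 markers of CD4+ T cells, 0 were listed, and of 4 markers of Th9 cells only *Il9* was, so the labelled cell type could be checked by *Il9* alone. *Il9* was at 3.82 FPKM in WT and at 1.24 FPKM in Areg-/- cells. The WT level was below 7.07 FPKM, the median WT level of all listed genes. *Il9* was itself called different between the genotypes, so this marker alone does not settle the cell type.

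TNF superfamily ligands are mostly made as membrane proteins that work as trimers, on the cell surface or after shedding. Their receptors carry cysteine-rich repeats outside the cell and, on ligand binding, recruit TRAF or death domain proteins that activate NF-κB and kinases or start cell death. In activated CD4+ T cells these ligands are induced by T cell receptor signals and act on antigen-presenting cells, B cells, stromal cells and other T cells. *Tnf* encodes TNF, the inflammatory cytokine that binds TNFR1 and TNFR2. *Tnfsf11* encodes RANKL, which binds RANK and is known for osteoclast formation, lymph node development and survival of dendritic cells. *Tnfrsf26* is a mouse receptor gene whose function is less well known.

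*Tnf* and *Tnfsf11* were both lower in Areg-/- cells, and the bases in front of their start sites are shown to let their promoters be read side by side. Of the 7 TNF superfamily genes described here, 4 had an entry among the RefSeq promoters of GRCm38.p6 that was used, including 2 of the 3 members. *Tnfrsf26*, *Tnfsf4* and *Cd40lg* had none. Each sequence runs 5′ to 3′ on the minus strand and holds the 250 bases before the start site. For *Tnf* this is chr17:35202008-35202257, and for *Tnfsf11* chr14:78308044-78308293. Capitals mark matches to GGAAA, the core that NFAT factors bind, and to TATAAA, the TATA box, on either strand.
Tnf: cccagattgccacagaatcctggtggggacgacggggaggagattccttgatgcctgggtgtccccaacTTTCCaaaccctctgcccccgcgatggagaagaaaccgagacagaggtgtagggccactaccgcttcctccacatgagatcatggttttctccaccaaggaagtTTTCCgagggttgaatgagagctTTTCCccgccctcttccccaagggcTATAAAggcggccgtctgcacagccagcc
Tnfsf11: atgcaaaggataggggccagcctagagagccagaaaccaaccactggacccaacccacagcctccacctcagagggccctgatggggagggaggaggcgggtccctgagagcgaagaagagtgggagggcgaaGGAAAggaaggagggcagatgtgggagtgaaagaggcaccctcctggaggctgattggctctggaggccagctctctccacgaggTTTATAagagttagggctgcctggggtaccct
Both promoters hold the TATA letters close to the start site. In *Tnf* they begin 29 bases before it on the coding strand, and in *Tnfsf11* 32 bases before it on the opposite strand. Of all 32851 promoter windows of this length, 12.4% held these letters anywhere and 2.50% held them at a start between 20 and 40 bases before the start site. The *Tnf* window holds 3 matches to GGAAA, which begin 181, 77 and 54 bases before the start site, all on the opposite strand. Windows with at least as many made up 6.39% of all. The *Tnfsf11* window holds 1 match, a number that 55.6% of windows reached. The windows of *Lta* and *Tnfrsf8*, which are not printed, hold 2 and 0 matches to GGAAA. That of *Tnfrsf8* also holds 1 match to TGANTCA and 2 to ACGTG that overlap each other on opposite strands. The letters TGANTCA (AP-1) and ACGTG (the core of the hypoxia response element) and a 10-base NF-κB motif were not found in the *Tnf* or *Tnfsf11* window. They were present in 6.75%, 16.6% and 4.11% of all windows, respectively. In the *Tnf* and *Tnfsf11* windows no match overlapped another, and a match to these letters is a description and not a bound site.

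The *Tnf* transcript is also known for its AU-rich element, a stretch behind the stop codon with repeats of the pentamer ATTTA that marks cytokine mRNA for rapid decay. The stretch of 30 bases with the most pentamers in the *Tnf* transcript of GENCODE release M21 is printed here to show how densely they are packed. It lies in the last exon on the minus strand of GRCm38, at chr17:35199679-35199708, and capitals mark its 5 pentamers.
Tnf: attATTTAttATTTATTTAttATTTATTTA
In all, the 764 bases after the stop codon of *Tnf* hold 8 pentamers, or 10.5 per kb. *Tnfsf11* has 6 in 1131 bases, or 5.31 per kb, and *Tnfrsf26* has 3 in 2381 bases, or 1.26 per kb. The median of 20962 annotated protein-coding genes was 1.22 per kb, and 1.09% of them reached the density of *Tnf*.

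*Tnf* (ENSMUSG00000024401.14) is annotated at chr17:35199381-35202007 on the minus strand of GRCm38 and has up to 4 exons, and no other annotated gene overlaps it. Its level was 28.1 FPKM in WT against 16.4 FPKM in Areg-/- cells. The Areg-/- level was 58.5% of the WT level, a difference of -0.77 on the log2 scale. *Tnf* was thus lower in Areg-/- cells by less than 2-fold. Among the 515 listed genes it ranked at position 96 by level in WT and at position 173 in Areg-/- cells. Among the 159 genes with a lower value in Areg-/- cells it stood at position 73 by log2 fold change, with -0.73 as the median of those genes.

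*Tnfsf11* (ENSMUSG00000022015.8) is annotated at chr14:78277445-78308043, also on the minus strand, with 5 exons, and is overlapped by no other annotated gene. Its level was 12.1 FPKM in WT and 3.30 FPKM in Areg-/- cells. The Areg-/- level was 27.2% of the WT level, a log2 fold change of -1.88 and a 3.67-fold lower value. *Tnfsf11* had the greatest log2 difference of the TNF superfamily genes in the table and was at position 12 of the 159 lower genes. *Tnf* was 2.32 times as abundant as *Tnfsf11* per transcript length in WT cells and 4.99 times as abundant in Areg-/- cells, so both ligand genes were lower but not in the same proportion.

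*Tnfrsf26* (ENSMUSG00000045362.8) is annotated at chr7:143607659-143628722, again on the minus strand, and has up to 8 exons. Its level was 4.13 FPKM in WT and 9.93 FPKM in Areg-/- cells, the opposite direction to both ligand genes. The log2 fold change was 1.26, a 2.40-fold higher value, and stood at position 75 of the 356 higher genes. *Tnfrsf26* had the lowest WT level of the 7 TNF superfamily genes in the table.

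The value of *Tnfrsf26* comes with an uncertainty of its own. The gene sits in a cluster with *Tnfrsf22* and *Tnfrsf23*, which encode decoy receptors for TRAIL, 6083 bases from the former. The locus that the table gives for *Tnfrsf26* runs from 143607659 to 143685872 and so spans all 3 receptor genes. *Tnfrsf22* and *Tnfrsf23* were not listed themselves. The coding sequence of *Tnfrsf26* was 62.5% identical to that of *Tnfrsf22* over 517 aligned bases and 58.4% identical to that of *Tnfrsf23* over 488. It shared 0 of its 3183 31-base words with the transcripts of either, whereas *Tnfrsf22* and *Tnfrsf23* were 90.7% identical and shared 1033 such words. An antisense gene, *E230032D23Rik*, overlaps the start of *Tnfrsf26* on the plus strand and covers 107 of its 3218 exonic bases, or 3.33%. The labels name a library kit that does not mark the strand, so reads of both genes cannot be told apart in the overlap. The span of *E230032D23Rik* also overlaps *Tnfrsf22*, with 0 shared exonic bases, and *Tnfrsf23*, with 164. It thus reaches all 3 receptor genes, as the given locus does. Whether reads of *Tnfrsf22* or *Tnfrsf23* entered the value of *Tnfrsf26* was not tested.

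**Figure D1:**
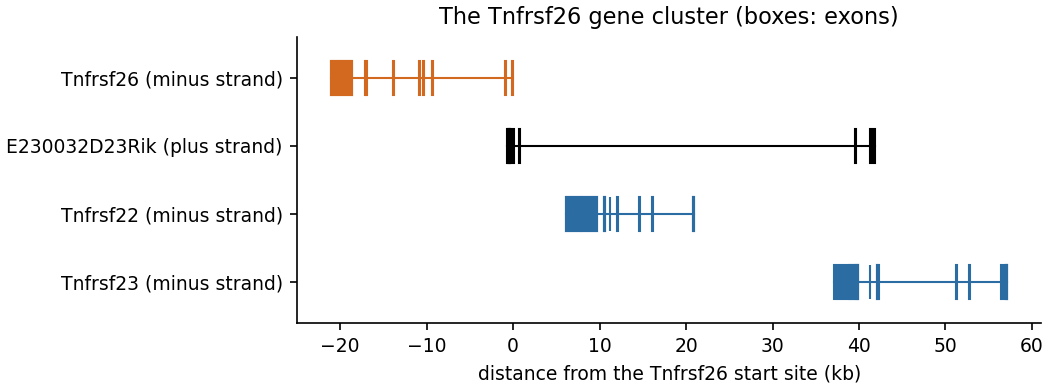
The *Tnfrsf26* gene cluster, drawn to scale with the distance from the *Tnfrsf26* start site in kb on the horizontal axis and 1 gene per line (boxes are exons of all annotated transcripts, lines are gene bodies, orange is *Tnfrsf26*, black is the antisense gene and blue are the other receptor genes). The antisense gene meets *Tnfrsf26* only at its start, where the 107 shared exonic bases lie.

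Beside the members, *Lta*, *Cd40lg* and *Tnfsf4* are ligand genes and were lower, and *Tnfrsf8* is a receptor gene and was higher. The counts and medians that follow include the members. Of 18 ligand genes of the superfamily, 5 were listed and 5 were lower in Areg-/- cells, beside 30.9% of all listed genes that were lower. Of 28 receptor genes, 2 were listed and 2 were higher, beside 69.1% of all listed genes that were higher. As most listed genes were higher, 2 of 2 says little about receptor genes. Of all 20962 protein-coding genes with an annotated stretch after the stop codon, 2.29% were listed. The rule behind the members used the same contrast, so these counts are a description. The median log2 fold change of the 5 ligand genes was -1.12 and that of the 2 receptor genes 1.09, whereas the median of all listed genes was 0.62. Taking a 2-fold difference as the limit, 3 of the 5 ligand genes were lower by more than that, beside 9.90% of all listed genes, and 1 of the 2 receptor genes was higher by more, beside 25.2%.

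*Lta* encodes lymphotoxin-α, which forms a secreted trimer that binds the TNF receptors and, with lymphotoxin-β, a membrane complex. It lies next to *Tnf* on chromosome 17, from 35203165 to 35205351 on the same strand, with 1157 bases between them. *Lta* was the most abundant of the listed ligand genes, with 98.1 FPKM in WT and 68.9 FPKM in Areg-/- cells, a log2 fold change of -0.51. The *Lta* level was 3.49 times that of *Tnf* in WT and 4.19 times in Areg-/- cells. Both neighbours were lower, *Tnf* by the larger factor. *Ltb*, which lies 3060 bases on the other side of *Tnf*, was not listed.

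*Cd40lg* encodes CD40 ligand, which T helper cells use to activate B cells and dendritic cells. Its level was 23.3 FPKM in WT and 10.7 FPKM in Areg-/- cells, a log2 fold change of -1.12. *Cd40lg* lies on the X chromosome from 57212143 to 57224042. *Xist*, which is transcribed from the inactive X chromosome, was at 15.5 FPKM in WT and at 43.4 FPKM in Areg-/- cells, a 2.80-fold higher value, while 0 genes of the Y chromosome were listed. The methods give the mice as matched for sex, but the sex of the animals behind each pooled value is unknown, and its part in any difference between the genotypes was not tested. Of 19 listed genes on the X chromosome, 7 (36.8%) were lower, beside 30.9% of all listed genes. *Tnfsf4* encodes OX40 ligand, which co-stimulates T cells through OX40, and lies on chromosome 1 from 161395409 to 161418410. It was at 9.34 FPKM in WT and at 3.83 FPKM in Areg-/- cells, a log2 fold change of -1.28.

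The receptor gene beside *Tnfrsf26* was *Tnfrsf8*, which encodes CD30, a receptor of activated lymphocytes. It is annotated at chr4:145267137-145315164 (minus strand). Its level was 13.1 FPKM in WT and 24.7 FPKM in Areg-/- cells, a log2 fold change of 0.92. *Tnfrsf8* was 3.16 times as abundant as *Tnfrsf26* in WT and 2.48 times in Areg-/- cells. The genes for the receptors of the listed ligands (*Tnfrsf1a*, *Tnfrsf1b*, *Tnfrsf11a*, *Ltbr*, *Cd40* and *Tnfrsf4*) were not listed, and neither was *Tnfsf8*, which encodes the ligand of CD30.

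**Figure D2:**
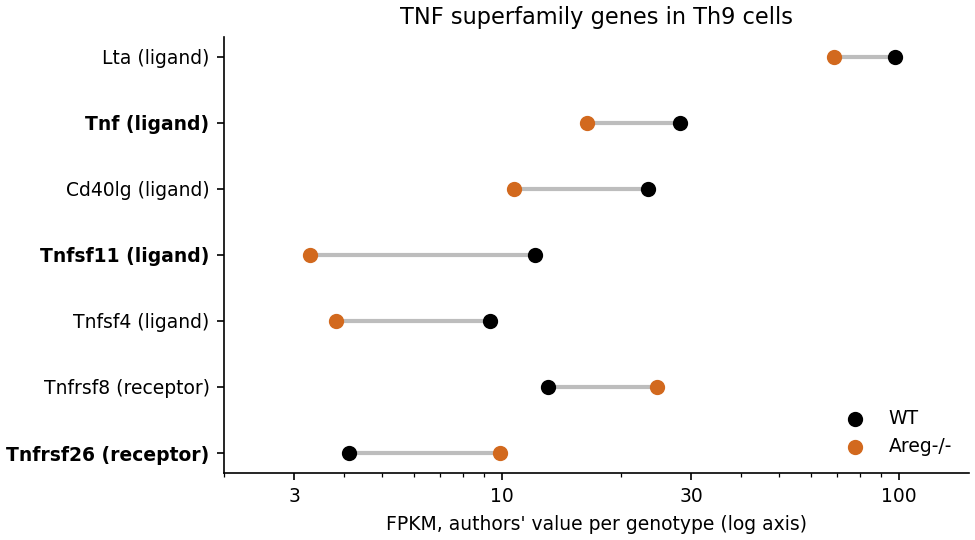
Levels of the 7 TNF superfamily genes in the table, in FPKM on a log axis, with 1 point for WT (black) and 1 for Areg-/- Th9 cells (orange) joined by a line and the members in bold. The Areg-/- point lies to the left of the WT point for the 5 ligand genes and to its right for the 2 receptor genes, and no error bars can be drawn as each point is a single value by the authors.

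By level, the listed ligand genes were ordered *Lta*, *Tnf*, *Cd40lg*, *Tnfsf11* and *Tnfsf4* in WT cells. In Areg-/- cells *Tnfsf11* and *Tnfsf4* changed places, with 0.859 as the ratio of *Tnfsf11* to *Tnfsf4* in place of 1.30. Without values per sample it is unknown which neighbours in this order differ beyond their spread. The 5 ligand genes together reached 170.9 FPKM in WT and 103.2 FPKM in Areg-/- cells, or 60.3% of the WT sum. Of that sum, *Lta* made up 57.4% in WT and 66.8% in Areg-/- cells. The share of *Tnf* was 16.4% and 15.9%, and that of *Tnfsf11* 7.08% and 3.19%. The smaller sum thus held relatively more *Lta* and less *Tnfsf11*.

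**Figure D3:**
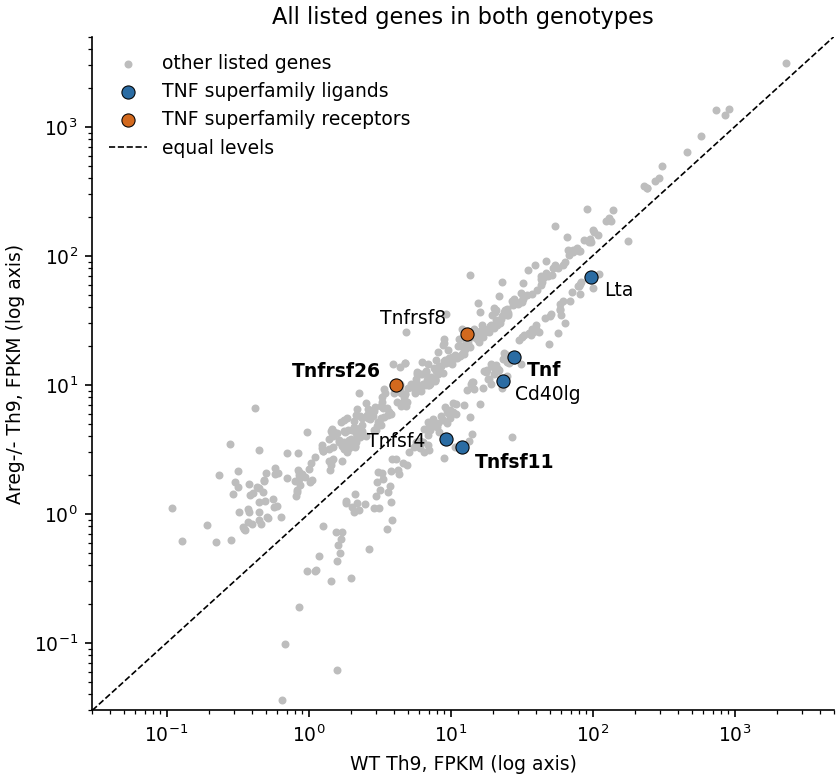
All 515 listed genes by their WT level (horizontal) and Areg-/- level (vertical), in FPKM on log axes, with TNF superfamily ligand genes in blue, receptor genes in orange and a dashed line at equal levels. The 5 ligand genes lie under the line and the 2 receptor genes above it, and genes that were not called are not drawn.

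Per kb, AU-rich pentamers were denser in every listed ligand gene than in the listed receptor genes, but their number was not divided in this way. Beside *Tnf* and *Tnfsf11*, the density was 5.24 per kb in *Lta*, 4.40 in *Cd40lg* and 1.87 in *Tnfsf4*. In *Tnfrsf8* it was 0, and the value of *Tnfrsf26* given above was below that of every listed ligand gene. By number, *Tnfrsf26* has 3 pentamers, as many as *Lta* and more than *Tnfsf4* and *Cd40lg*, which have 2 each. Whether pentamers bear on the levels was not tested. Over the listed genes with an annotated stretch after the stop codon, the median was 1.78 per kb in 151 lower genes and 1.09 per kb in 330 higher genes. The density of *Tnf* was reached by 8 of the former (5.30%), *Tnf* itself among them, and 1 of the latter (0.303%). The counts use the longest protein-coding transcript of each gene, and which transcript the Th9 cells made is unknown.

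**Figure D4:**
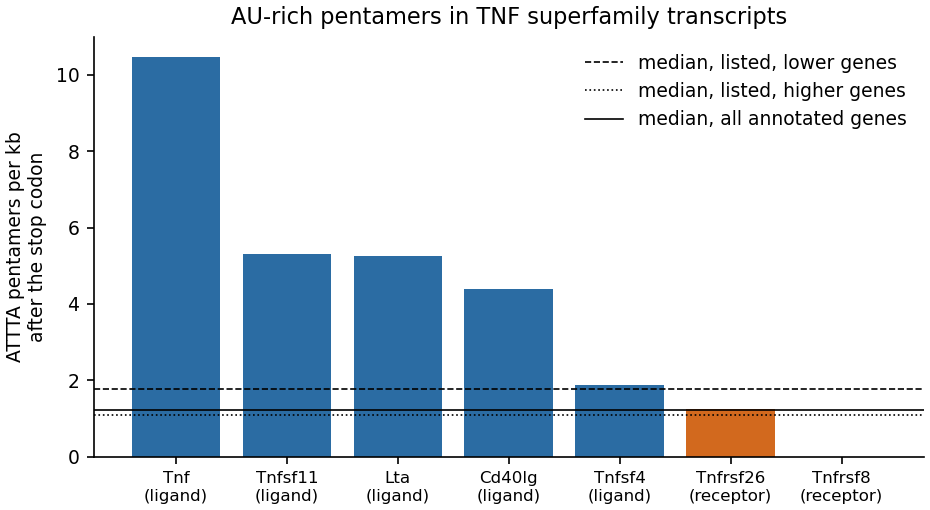
Density of the pentamer ATTTA after the stop codon, in pentamers per kb, for the 7 TNF superfamily genes (bars from 0, ligand genes in blue and receptor genes in orange), with lines at the medians of lower listed, higher listed and all annotated protein-coding genes. Bars run from 10.5 for *Tnf* down to 1.87 for *Tnfsf4* among ligand genes and are at 1.26 and 0 for the receptor genes.

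Genes that act before or after these ligands were counted in the same way. A share listed is to be read beside the 2.29% of all 20962 protein-coding genes with an annotated stretch after the stop codon that were listed, so that no listed gene in a short list says little. Of 27 adaptor and death domain proteins of TNF receptor signalling (TRAF proteins, RIPK1, caspase-8 and others) 0 were listed. The same held for 6 genes of ligand shedding, such as *Adam17*, which encodes the protease that releases TNF, and for 7 genes of cytokine mRNA decay, such as *Zfp36*, which encodes a protein that binds the AU-rich element. Of 14 NF-κB subunits, inhibitors and IκB kinases 3 were listed. *Nfkbid*, which encodes a nuclear IκB protein, was at 20.5 FPKM in WT and at 13.4 FPKM in Areg-/- cells (log2 fold change -0.62). *Rel*, which encodes the NF-κB subunit c-Rel, had 14.2 and 10.6 FPKM (-0.42). *Bcl3*, a further IκB family gene, had 43.2 and 59.0 FPKM (0.45, which turned to -0.17 when centred on the median of all listed genes). Of 12 genes known as TNF-induced or binding the TNF-induced protein A20, *Tnip3* alone was listed, with 8.07 FPKM in WT and 12.7 FPKM in Areg-/- cells.

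Of 18 NFAT, AP-1, EGR and NR4A factors, which act in T cell activation, 3 were listed. *Nr4a3*, an immediate early gene of T cell receptor signalling, was at 49.0 FPKM in WT and at 20.9 FPKM in Areg-/- cells (log2 fold change -1.23). *Egr3*, which is induced by NFAT, had 24.9 and 15.0 FPKM (-0.73), and *Fosl2*, which encodes an AP-1 subunit, had 46.7 and 73.1 FPKM (0.65). Of 18 other T cell cytokines 8 were listed, 5 lower and 3 higher in Areg-/- cells, beside 30.9% lower and 69.1% higher over all listed genes. Their median log2 fold change was -1.01, beside -1.12 for the TNF superfamily ligand genes. *Il2*, the T cell growth factor, was lowest at -2.79, followed by *Il3* at -1.76, *Il9* at -1.62 and *Csf2*, which encodes GM-CSF, at -1.17. *Tnfsf11* lay between *Il2* and *Il3*, whereas *Tnf* lay close to *Il4*, at -0.85. *Il10*, *Il21* and *Il24* were higher, by 0.59 to 0.78 on the log2 scale, but *Il24* was at -0.032 after such centring.

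**Figure D5:**
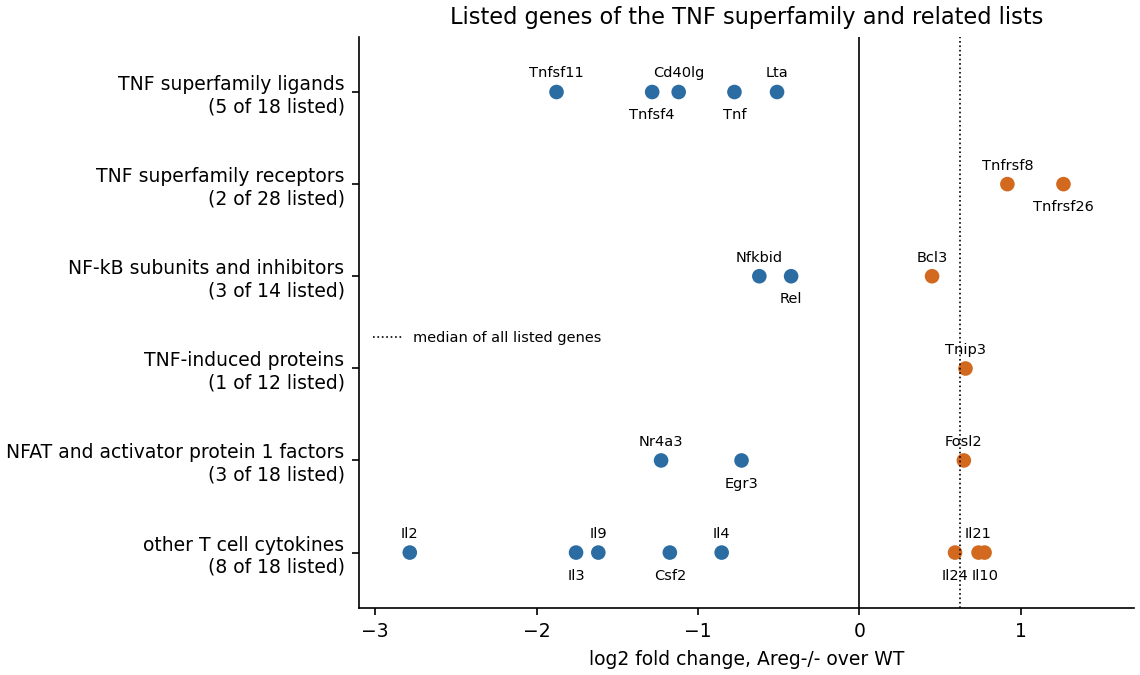
Log2 fold changes (Areg-/- over WT, horizontal) of the listed genes in each gene list with at least 1 listed gene, with lower genes in blue, higher genes in orange, a solid line at 0 and a dotted line at 0.62, the median of all listed genes. TNF superfamily ligand genes span -1.88 to -0.51 and receptor genes 0.92 to 1.26, and *Bcl3* and *Il24* lie between both lines.

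Markers of other cells could be followed only in part. Of 2 markers of CD8+ T cells, *Cd8a* was listed, with 2.13 FPKM in WT and 3.32 FPKM in Areg-/- cells. Of 3 markers of NK cells, *Klrd1* was listed, with 1.44 and 4.40 FPKM. Of 5 B cell, 5 myeloid, 3 dendritic cell, 3 innate lymphoid cell and 2 regulatory T cell markers, 0 were listed, so their levels are unknown. The part of other cells in the values of *Tnf*, *Tnfsf11* and *Tnfrsf26* was not tested, and in bulk RNA fewer cells that express a gene and less RNA per cell cannot be told apart.

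For each member, the 3 listed genes with the nearest pair of levels were found by the distance on the log2 scale over both genotypes. *Tnf* was nearest to *Tgtp1*, with 28.0 FPKM in WT and 15.7 FPKM in Areg-/- cells, a distance of 0.065, and then to *Plk2* and *Znhit6*. *Tnfsf11* was nearest to *Lad1*, with 3.43 FPKM in Areg-/- cells and a distance of 0.057, and then to *Jaml* and *Lair1*. *Tnfrsf26* was nearest to *Spp1*, which encodes the cytokine osteopontin, with 4.31 and 9.49 FPKM, a distance of 0.089, and then to *Azin2*. The likeness rests on 2 values per gene.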

How the data were processed

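RNA from 4 Th9 cell samples was sequenced by the authors, who per the labels and the methods of the study aligned the reads to GRCm38 with TopHat2 and Bowtie2 and quantified them with HTSeq-count and Cuffdiff. Each genotype has 1 deposited FPKM value per gene, which comes from Cuffdiff and was used unchanged. The table also holds the authors' own fold changes, test statistics, p-values and q-values, which were not used, and all 515 genes in it are marked as significant. The methods of the study also name an absolute fold change above 2 as a cut-off. Of the 515 genes, 51 were lower and 130 higher by over 2-fold. Of the TNF superfamily genes, *Tnf* (1.71-fold), *Lta* (1.42-fold) and *Tnfrsf8* (1.89-fold) did not reach this cut-off. Depth and spread per sample are unknown, so no test, interval or block was computed.

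The log2 fold change was recalculated as log2 of the Areg-/- over the WT value, without a pseudocount. Symbols in the gene lists were turned into gene identifiers through a symbol table and matched to the listed genes by identifier. Of 515 identifiers, 514 matched the symbol table. Members and lists were chosen with earlier results of these data known. Named were all listed TNF superfamily genes, up to 5 listed genes per further list by the largest absolute log2 fold change, and the 3 genes nearest to each member in both levels, of which 1 is not reported here. *Il10*, *Il21*, *Il24*, *Xist* and the chemokine and interleukin genes of the closing section were named after their values were seen. Gene models and transcripts are from GENCODE release M21 and promoters from RefSeq (GRCm38.p6). Alternatives were pseudocounts of 1 and 0.1, centring and a minimum of 1 FPKM. Calculations were tested on simulated data. Python 3.11.15, numpy 2.4.6, pandas 2.3.3, biopython 1.88 and matplotlib 3.10.9 were used.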

Additional observations from a re-analysis of the deposited data

How the results depend on the processing

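No paired analysis was possible because both samples of a genotype share a single value. Replicates could likewise not be left out in turn. Adding 1 FPKM gave log2 fold changes of -0.74 for *Tnf*, -1.61 for *Tnfsf11* and 1.09 for *Tnfrsf26*, and adding 0.1 FPKM gave -0.77, -1.85 and 1.24. A pseudocount shrinks low values and cannot turn a direction. Centring on the median of all listed genes (0.62) gave -1.40, -2.50 and 0.64. It takes the same value from every gene, and left 5 TNF superfamily genes lower and 2 higher, but 5 lower and 0 higher by over 2-fold (3 and 1 without centring). The 2-fold limit was chosen after the data were seen. Centring turned *Bcl3* to -0.17 and *Il24* to -0.032. Of 21 other superfamily, list and marker genes, the remaining 19 kept their direction on centring. The nearest genes, *Xist* and the chemokine and receptor genes of the closing section were not among these 21. All 7 TNF superfamily genes had at least 1 FPKM in a genotype.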

Other observations

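The division between ligand and receptor genes was looked for in other cytokine families by gene symbol, after the TNF superfamily values had been seen. Of the chemokines, *Ccl20*, *Ccl22* and *Ccl4* were listed, and all 3 were lower in Areg-/- Th9 cells. *Ccl22*, which attracts cells with the receptor CCR4, was at 6.93 FPKM in WT and at 4.12 FPKM in Areg-/- cells, a log2 fold change of -0.75, close to that of *Tnf*. Both listed chemokine receptor genes were higher. *Cxcr4*, which encodes the receptor of CXCL12, had 6.26 and 15.1 FPKM, a log2 fold change of 1.27 that is close to that of *Tnfrsf26*. *Ccr2* had 0.378 and 1.69 FPKM. Among interleukins the division was not uniform, with 6 of 10 listed genes lower and 4 higher. The 1 listed interleukin receptor gene, *Il1r2*, which encodes a decoy receptor, had 0.490 and 1.27 FPKM. These are counts among called genes, of which 69.1% were higher, and no value per sample stands behind them.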
